A study of Mus musculus with 32 samples.

Results

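Plk2, a polo-like kinase, and 9 established target genes of the transcription factor p53 were followed in sorted Lgr5-EGFP+ progenitor cells of mouse colonic organoids, untreated (UT) or treated with bethanechol (Bch), an agonist of muscarinic acetylcholine receptors. The members were Plk2, Cdkn1a, Btg2, Ccng1, Mdm2, Zmat3, Sesn1, Phlda3, Trp53inp1 and Bax, which are 10 of the 23517 genes in the table. Plk2 was chosen by its measured Bch over UT ratio, which had been seen to be above 1 in all mice of the set BR7-BR10 described below, and the other 9 were added as known p53 targets with the Bch results in view. The values of the members below, also between the sets, are therefore given as a description, without p-values, and for Bch the count of members past the threshold is printed beside that of all genes with nothing read from it.

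Each of 8 mice gave an UT and a Bch-treated sample, which made 4 groups of 4 samples. All mice carried the Lgr5-EGFP-IRES-CreERT2 allele, which places EGFP and a tamoxifen-inducible Cre under the control of Lgr5, a gene of crypt base stem cells, so that the sort follows Lgr5 promoter activity and not a full stem cell phenotype. Crypts came from the proximal colon of animals described only as matched for age and sex, and were grown in L-WRN medium, with 250 nM Bch renewed daily for 4 days in the treated groups. The mice formed one set numbered BR1 to BR4, labelled male, with sorted Lgr5+ cells as the source and the RNAeasy Plus Micro Kit for extraction, and another numbered BR7 to BR10, which carries no sex label, names colonic organoids as its source and used the RNAeasy Mini Kit. The series description counts 4 female and 4 male mice. Sex, kit and labelled source cannot be told apart from the set. Most samples came from 3000 sorted cells, with the lowest number, 2361, in UT cells of BR3 and the highest, 13114, in UT cells of BR1.

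p53, encoded by Trp53, is stabilized after DNA damage and other stress and switches on genes that halt the cell cycle, repair DNA or trigger apoptosis. Cdkn1a (p21) inhibits cyclin-dependent kinases, Mdm2 is the ubiquitin ligase that returns p53 to low levels, and Bax permeabilizes mitochondria. In the intestinal epithelium p53 is known for the response of crypt cells to radiation. Plk2 is an early-response kinase of centriole duplication and the cell cycle that p53 can also induce.

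Each sample was represented by 2 technical replicates of the same cells, and the 32 libraries held 267146 to 2119938 unique molecular identifiers (UMIs, tags that mark cDNA molecules). For the median of 7230 genes with at least 5 UMIs everywhere, the counts of technical replicates differed by less than the sampling noise (chi-square per degree of freedom 0.465), so they were summed and counted as 1 sample. Agreement closer than independent counting gives means that the replicates may share molecules, and the summed UMI numbers may then count a molecule more than once. The 16 sums held 557512 (UT cells of BR3) to 4050342 UMIs, and levels are given as CPM (UMIs scaled to a common library total) after TMM normalization, a scaling that evens out differences in composition between libraries. A count of 0 in the deeper technical replicate, taking 3 counts as the limit, allowed up to 1.42 CPM in the deepest and 10.3 CPM in the shallowest sum, for counting error only. All 7 epithelial markers passed the filter on low counts in every comparison (summed level 7667 to 9906 CPM), Lgr5 stood at 12.4 to 38.6 CPM, 0 of 6 tuft cell markers passed the filter (summed level 0.895 to 14.0 CPM), and 0 of the 7 markers of immune, stromal, endothelial and muscle cells in the table did (summed level 1.21 to 11.5 CPM, with 4 of the 7 at 0 UMIs in more than 8 of the 16 sums). In bulk samples, fewer cells of a type and less RNA per cell cannot be told apart.

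The genes lie on 8 chromosomes (GRCm38, GENCODE M21 positions). Plk2 was placed at chr13:110395046-110400844 on the plus strand and Cdkn1a at chr17:29090976-29100727 on the plus strand, where the antisense gene AC167363.2 overlaps it. Mdm2 was placed at chr10:117688875-117710758 and Ccng1 at chr11:40748552-40755311, both on the minus strand. Btg2 (chr1:134075170-134079120, minus) and Phlda3 (chr1:135766119-135769136, plus) share chromosome 1. Bax (chr7:45461697-45466898, minus) overlaps Gm45808 on its own strand. Of the distinct 65-base sequences in the last 500 bases of its transcripts, 11.8% also occur in Gm45808. Some reads may therefore fit both genes, and the share of the Bax count that this touches was not measured. For the other 9 genes, 0% of such sequences occurred in another gene.

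Promoter windows show which of these genes carry the p53 recognition letters next to their start. The window ran from 250 bases before to 50 bases after a transcription start (RefSeq, GRCm38.p6), and was given for 8 of the 10 genes, in 10 windows, without Zmat3 and Trp53inp1. The search used the p53 decamer consensus, which reads alike on both strands, and counted exact matches only. A complete response element is a pair of such decamers with a spacer of 0 to 13 bases. The decamer occurred in 5 of the 10 windows (Cdkn1a, Mdm2, Ccng1, Bax and a second start of Sesn1), and in 2745 of all 32851 windows (8.36%). Only the first Cdkn1a window among the 10 held a pair of exact matches, with a spacer of 12 bases. A pair of exact matches was found in 24 of all windows (0.0731%). Plk2, Btg2, Phlda3, the first window of Sesn1 and the second of Cdkn1a held no match, which says only that these letters are not in these windows. The stretches around the matches are printed for Cdkn1a, with a pair of exact matches, and for Mdm2, Ccng1, Bax and Sesn1, with a single exact match (capitals mark each exact match):
Cdkn1a, chr17:29090886-29090957, plus strand: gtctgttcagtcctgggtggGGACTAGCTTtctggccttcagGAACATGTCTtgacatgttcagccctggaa
Mdm2, chr10:117710915-117710964, minus strand: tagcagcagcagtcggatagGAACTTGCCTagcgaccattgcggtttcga
Ccng1, chr11:40755442-40755491, minus strand: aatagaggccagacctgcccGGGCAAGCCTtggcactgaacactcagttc
Bax, chr7:45467070-45467119, minus strand: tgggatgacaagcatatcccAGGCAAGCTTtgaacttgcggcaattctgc
Sesn1, chr10:41887246-41887295, plus strand: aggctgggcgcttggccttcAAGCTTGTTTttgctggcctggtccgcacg
The marked Cdkn1a decamers began 73 and 51 bases before the start of its first window, which is the upstream start. The second Cdkn1a window lies at a start further downstream. The decamers of Mdm2, Ccng1, Bax and the second Sesn1 window began 186, 185, 201 and 173 bases before the start of their window. A decamer with a single mismatched base lies directly after the second Cdkn1a match, and another directly before the Ccng1 match. These were not counted, so the marked letters and the spacer need not be the complete element. A match is a description of the letters and not a measured binding site.

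Plk2 showed Bch ratios of opposite sign in the sets. In UT cells of BR7, BR8, BR9 and BR10, Plk2 stood at 29.5, 18.5, 22.8 and 18.4 CPM, and with Bch at 60.7, 35.1, 25.9 and 25.7 CPM. Every mouse of this set thus had the higher Plk2 value with Bch (log2 fold change 0.66, SE 0.22, n = 4), although the groups overlap because UT cells of BR7 were above Bch-treated cells of BR9 and BR10. In UT cells of BR1, BR2, BR3 and BR4, Plk2 stood at 26.0, 52.3, 50.7 and 48.2 CPM, and with Bch at 22.3, 35.5, 50.0 and 38.6 CPM. These 4 mice all gave the lower value with Bch (log2 fold change -0.30, SE 0.18, n = 4), with -0.20 without BR2 and -0.45 and -0.16 from technical replicates 1 and 2 alone. The mouse with the smallest difference was BR3, whose log2 ratio of plain CPM was -0.35 in technical replicate 1 and 0.22 in technical replicate 2. Among all genes tested, 5.78% were higher in 4 of 4 mice in BR7-BR10 and 6.86% were lower in 4 of 4 in BR1-BR4.

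**Figure D1:**
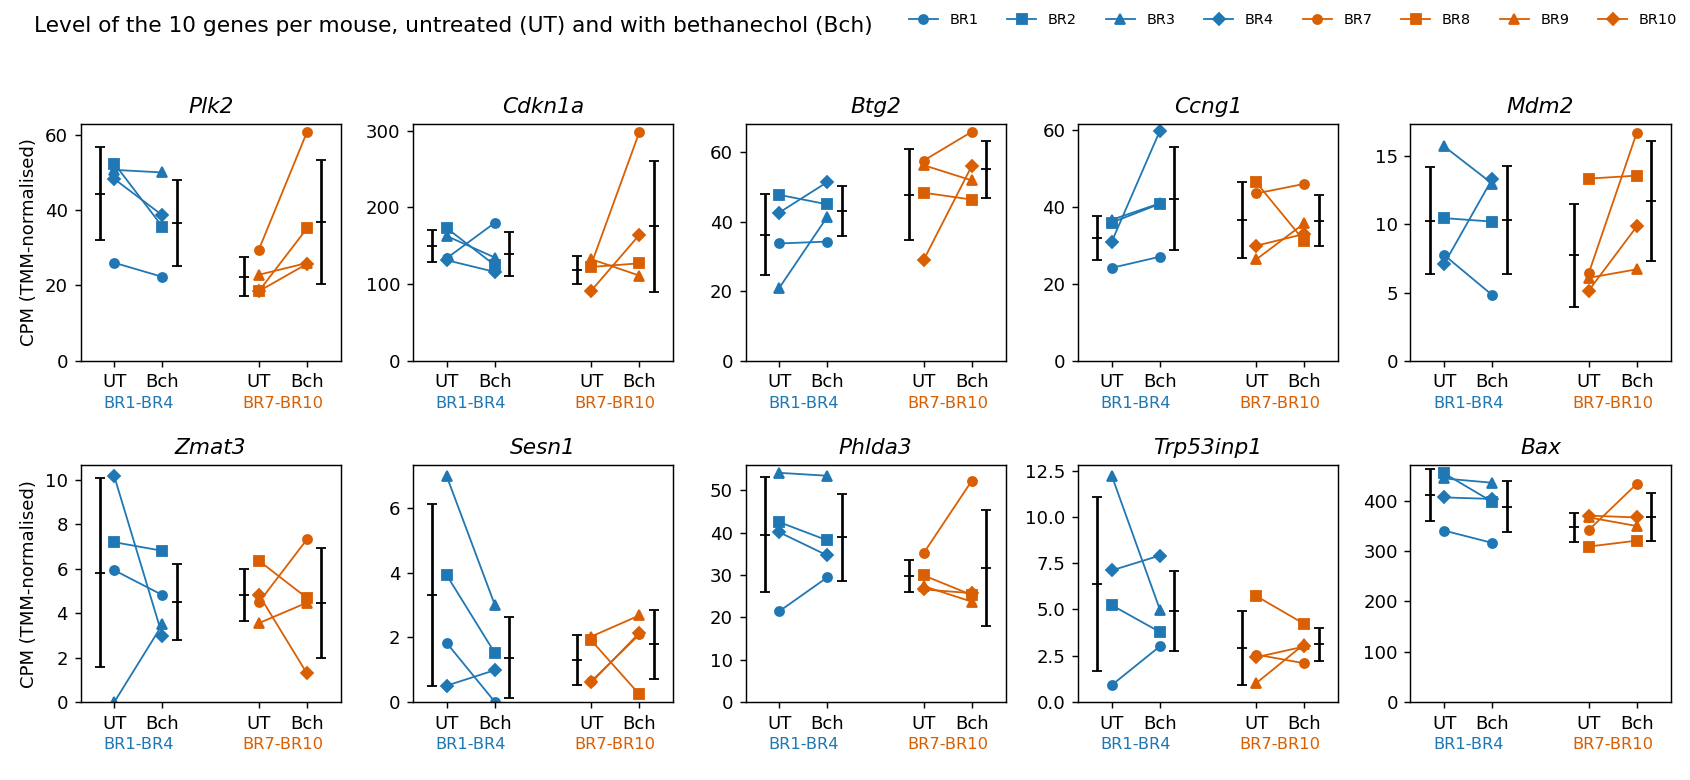
TMM-normalized CPM (vertical axes, linear from 0, each gene with its own range) of the 10 genes in UT and Bch-treated cells, with lines joining the samples of a mouse and black bars giving mean ± SD of 4 mice. The 4 Plk2 lines of BR7-BR10 run upward, to 60.7 CPM in BR7, and no gene has groups free of overlap.

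The groups ordered by mean Plk2 level were UT cells of BR1-BR4 (44.3 ± 12.3 CPM, SD, n = 4), Bch-treated cells of BR7-BR10 (36.9 ± 16.5), Bch-treated cells of BR1-BR4 (36.6 ± 11.4) and UT cells of BR7-BR10 (22.3 ± 5.20). The first 3 of these means lie within 1 SD of each other, and the last one stands below them, though within 1 SD (16.5 CPM) of the Bch-treated cells of its own set. Between UT cells of BR7-BR10 and BR1-BR4 the log2 fold change of Plk2 was -0.99 (SE 0.24, n = 4 per group), from -1.21 without BR1 to -0.87 without BR2, and the groups overlap, because BR1 at 26.0 CPM was below BR7 at 29.5 CPM. Between Bch-treated cells of the sets it was -0.07 (SE 0.26), from -0.33 without BR7 to 0.11 without BR3. Both are given with no test, because the UT and Bch values of BR7-BR10 are the denominator and numerator of the ratio that named Plk2.

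Marker genes were also measured with Bch within the sets, and their part in the Plk2 values was not tested. Immediate early and dissociation genes lay above 0 for 10 of 15 tested in BR7-BR10 (median log2 fold change 0.11) and below 0 for 9 of 13 in BR1-BR4 (median -0.21). Goblet cell markers were above 0 for 7 of 8 in BR7-BR10 (median 0.24) and 4 of 7 in BR1-BR4 (median 0.01), and colonocyte markers for 5 of 8 (median 0.14) and 2 of 7 (median -0.17). Stem cell markers were above 0 for 6 of 10 and 5 of 10 (medians 0.05 and 0.00), and enteroendocrine markers for 2 of 6 and 4 of 6 (medians -0.11 and 0.12). No gene of these lists passed the threshold for Bch in either set by edgeR. At an unadjusted p under 0.05 stood 2 goblet cell, 1 colonocyte, 1 stem cell and 1 enteroendocrine marker higher in BR7-BR10, and 1 stem cell, 1 enteroendocrine and 1 immediate early or dissociation gene lower. In BR1-BR4 there were 2 colonocyte markers, 1 stem cell marker and 2 immediate early or dissociation genes lower and 0 genes higher. Those with the smallest p were Fcgbp (0.77, SE 0.19), Selenbp1 (0.57, SE 0.14) and Gcg (-0.81, SE 0.17) in BR7-BR10 and Car1 (-0.41, SE 0.12) in BR1-BR4.

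Cdkn1a, which arrests the cell cycle, had Bch ratios that differed widely between mice. In UT cells of BR7, BR8, BR9 and BR10 its level was 125, 122, 132 and 91.3 CPM, and with Bch it was 298, 127, 111 and 164 CPM. It was higher in 3 of 4 mice (log2 fold change 0.47, SE 0.18), and BR7 carried much of this, since the value was 0.23 without BR7 and 0.71 without BR9. In BR1, BR2, BR3 and BR4 Cdkn1a went from 134, 173, 163 and 131 CPM in UT cells to 179.9, 124, 134 and 116 CPM with Bch. There it was lower in 3 of 4 mice (log2 fold change -0.11, SE 0.12), and the estimate ran from -0.31 without BR1 to 0.02 without BR2. Between UT cells of the sets, the log2 fold change of Cdkn1a was -0.36 (SE 0.14), and between Bch-treated cells 0.30 (SE 0.34), which turned to -0.04 without BR7 and was 0.47 without BR9.

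Mdm2, the negative regulator of p53, was counted at low depth, with 8 to 58 UMIs per sum. Its level in UT cells of BR7, BR8, BR9 and BR10 was 6.40, 13.4, 6.09 and 5.14 CPM, and with Bch 16.7, 13.6, 6.71 and 9.86 CPM. All 4 mice gave a higher value with Bch (log2 fold change 0.57, SE 0.35), but the log2 ratios of BR8 and BR9 were 0.02 and 0.12, and the value was 0.36 without BR7 and 0.83 without BR8. In BR1 to BR4 Mdm2 ranged from 7.11 to 15.7 CPM in UT cells and from 4.81 to 13.4 CPM with Bch, and was lower in 3 of 4 mice (log2 fold change 0.04, SE 0.35). The sign of that estimate and of most single mice differed, and it ran from -0.30 without BR4 to 0.23 without BR1.

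The antiproliferative members Btg2 and Ccng1 showed other patterns across the mice. Btg2, a transcriptional coregulator that slows cell division, ran from 29.0 to 57.6 CPM in UT and from 46.4 to 65.9 CPM in Bch-treated cells of BR7-BR10, with 2 of 4 mice higher (log2 fold change 0.24, SE 0.18), and this estimate ran from 0.00 without BR10 to 0.37 without BR9. In BR1-BR4 it ran from 21.0 to 47.8 CPM and from 34.3 to 51.4 CPM, with 3 of 4 mice higher (0.20, SE 0.18), and the estimate ran from 0.08 without BR3 to 0.33 without BR2, and was 0.42 with counts thinned to the smallest sum. Ccng1, cyclin G1, stood at 24.2, 36.0, 36.7 and 31.0 CPM in UT cells of BR1, BR2, BR3 and BR4, and at 27.1, 40.8, 41.0 and 59.9 CPM with Bch. All 4 of these mice were higher (log2 fold change 0.40, SE 0.19), where 8.19% of all genes tested in BR1-BR4 were higher in 4 of 4, and the value was 0.17 without BR4. In BR7-BR10 the estimate for Ccng1 was 0.01 (SE 0.20), which ran from -0.14 without BR9 to 0.23 without BR8 and was -0.26 with thinned counts, with 3 of 4 mice higher and BR8 going from 46.5 to 31.2 CPM. Ccng1 was thus higher in 7 of 8 mice, a count that 4.31% of all genes tested reached or passed in that direction.

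Bax and Phlda3, which act in cell death and in restraint of Akt signaling, had small mean differences with Bch. Bax, the most strongly counted member with 254 to 1368 UMIs per sum, averaged 347 ± 28.4 CPM (SD, n = 4) in UT and 367 ± 47.8 CPM in Bch-treated cells of BR7-BR10, a log2 fold change of 0.08 (SE 0.13) that was -0.00 without BR7. In BR1-BR4 it averaged 411 ± 51.4 and 388 ± 50.9 CPM and was lower in 4 of 4 mice, by a log2 fold change of -0.09 (SE 0.09, and -0.05 without BR2 and -0.04 with thinned counts). Phlda3 had log2 fold changes of 0.01 (SE 0.21, and -0.16 without BR7) in BR7-BR10 and -0.00 (SE 0.19, from -0.13 without BR1 to 0.08 without BR4, and 0.23 with thinned counts) in BR1-BR4. Within BR7-BR10 it went from 35.2 to 52.3 CPM in BR7, while BR8, BR9 and BR10 were lower with Bch, at 23.7 to 25.7 CPM.

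Zmat3, Sesn1 and Trp53inp1, an RNA-binding factor, a stress sensor of the mTORC1 pathway and an autophagy-linked p53 cofactor, were near the limit of counting. Zmat3 had 0 to 20 UMIs per sum (0.00 to 10.2 CPM) and log2 fold changes of -0.30 (SE 0.48, and -0.56 without BR7) in BR7-BR10 and -0.44 (SE 0.47) in BR1-BR4, where it turned to 0.11 without BR4 and was -0.67 without BR3. Trp53inp1 had 2 to 18 UMIs per sum (0.912 to 12.2 CPM), did not pass the filter in BR7-BR10, and had a log2 fold change of -0.16 (SE 0.48) in BR1-BR4, which ran from -0.44 without BR1 to 0.20 without BR3. Sesn1 had 0 to 6 UMIs per sum (0.00 to 6.99 CPM) and passed the filter in no comparison, so that no change of it was detectable at this depth.

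**Figure D2:**
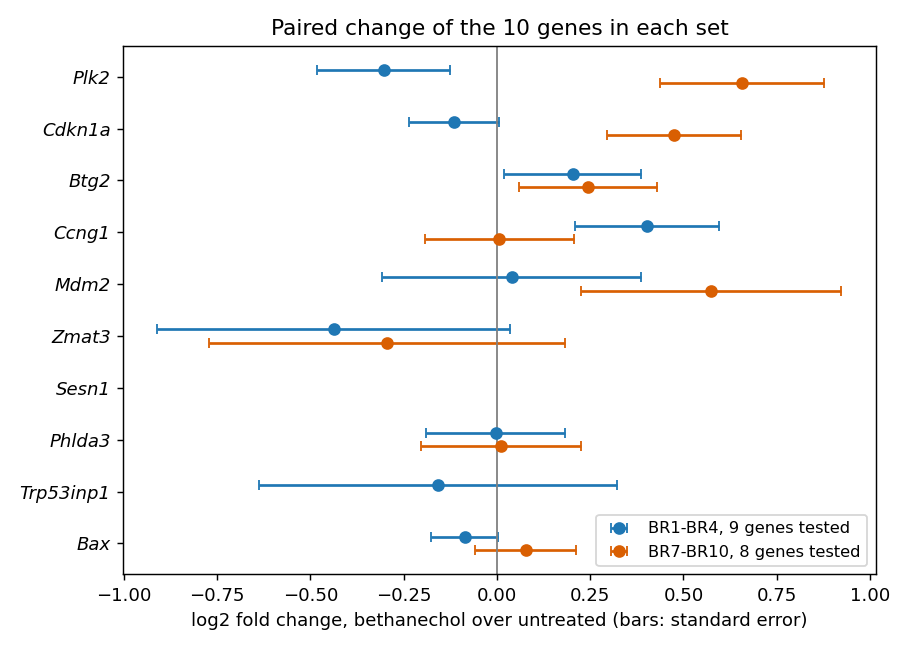
Log2 fold change of Bch over UT (horizontal axis) with its standard error (bars) for each gene in BR1-BR4 (blue) and BR7-BR10 (orange), with 4 mice per set and genes that failed the low-count filter left blank. Plk2 stands at -0.30 in BR1-BR4 and 0.66 in BR7-BR10, the set whose ratios named it. The bars are 1 standard error, and whether those of the sets overlap is not a test of a difference between the sets.

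Of the members that passed edgeR's filter (8 in BR7-BR10 and 9 in BR1-BR4), 0 passed the threshold for Bch in either set (adjusted p of 0.05, edgeR). Over all genes the test called 0 of 9515 in BR7-BR10 (0%, with 360 at an unadjusted p under 0.05) and 2 of 9509 in BR1-BR4 (0.021%, with 734), while DESeq2 called 0 and 14. Nothing is read from the members' count, since these contrasts chose them. UT and Bch groups overlapped for 10 of 10 members in both sets, where 2.15% and 2.85% of all genes tested had groups that did not overlap.

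The change was also fitted as a difference between the sets, with both treatments of all 8 mice. The difference (BR7-BR10 minus BR1-BR4) on the log2 scale was 0.96 (SE 0.28) for Plk2, 0.59 (SE 0.29) for Cdkn1a, 0.53 (SE 0.49) for Mdm2 and -0.39 (SE 0.28) for Ccng1. For Bax it was 0.16 (SE 0.16), and for Btg2 and Phlda3 it was 0.03 (SE 0.27) and 0.01 (SE 0.28). Without BR7 the difference was 0.34 for Cdkn1a, 0.32 for Mdm2, 0.07 for Bax and -0.16 for Phlda3, and without BR4 it was 0.89 for Mdm2 and -0.14 for Ccng1. For Btg2 it ran from -0.20 without BR10 to 0.19 without BR3, and for Plk2 from 0.83 without BR7 to 1.12 without BR9. With thinned counts it was -0.76 for Ccng1, 0.10 for Bax, -0.09 for Btg2 and -0.20 for Phlda3. By edgeR, 0 of 10280 genes (0%) were past the threshold for this difference, with 451 at an unadjusted p under 0.05, and DESeq2 called 0. Over all 8 pairs together the Bch change of Plk2 was 0.16 (SE 0.16) with 4 of 8 mice higher, and that of Cdkn1a 0.18 (SE 0.19) with 4 of 8 higher. These were 0.05 and 0.04 without BR7, and 0.29 and 0.28 without BR2, and for Plk2 0.06 and 0.25 from technical replicates 1 and 2 alone.

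The direction of the members differed from mouse to mouse. Of the 7 genes with at least 5 UMIs in every sum (all but Zmat3, Sesn1 and Trp53inp1), 7 were higher with Bch in BR7 and 5 in BR10, with median log2 ratios of 0.56 and 0.46. In BR8 and BR9 4 and 3 of the 7 were higher, with medians of 0.02 and -0.07. In BR1, BR2, BR3 and BR4 the counts were 4, 1, 2 and 3, with medians from -0.15 to 0.02. The median over all genes was between -0.01 and 0.03 in every mouse, and that over other p53 targets was 0.24 in BR7 and -0.00 in BR10. Bch-treated cells of BR7 also formed the shallowest sum of their set, at 1066102 UMIs. With all sums thinned to 557512 UMIs, the log2 fold changes in BR7-BR10 were 0.94 (SE 0.32) for Plk2 and 0.55 (SE 0.18) for Cdkn1a, and Mdm2 no longer passed the filter.

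**Figure D3:**
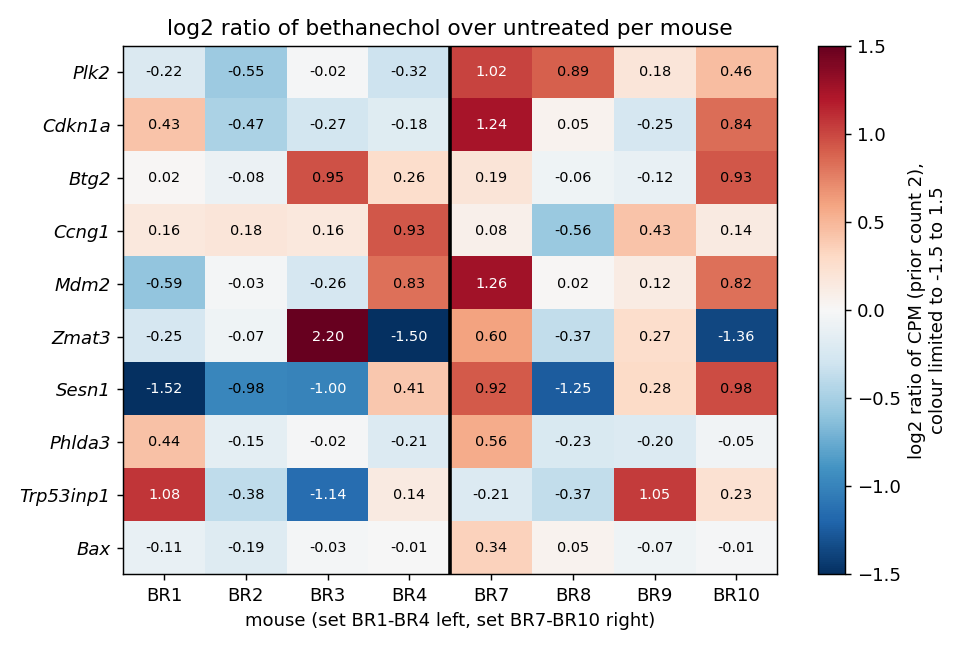
Log2 ratio of Bch over UT CPM for each gene (rows) and mouse (columns), with a prior count of 2, printed in each cell and colored from blue (lower with Bch) to red (higher), the color limited to -1.5 to 1.5. Cdkn1a and Mdm2 reach 1.24 and 1.26 in BR7, and the extreme cells of Zmat3, Sesn1 and Trp53inp1 rest on few UMIs.

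The genes whose 8 mouse ratios were most like those of Plk2, among 3681 genes with at least 20 UMIs in every sum, were Ubtf, Pycr1, Zfp36l1, Rangap1 and Cltc (Pearson's r 0.956, 0.921, 0.901, 0.867 and 0.849 over 8 mice). For Cdkn1a they were Junb, Card19, Gm6654, Sh3yl1 and Ostf1 (r 0.960, 0.959, 0.958, 0.950 and 0.948). These r are a description, since the 8 points fall into the sets BR1-BR4 and BR7-BR10 and the genes of a mouse share the same libraries. They are also the highest of 3681 genes over only 8 points, and the r that chance alone would give was not computed.

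Between the sets, 1.64% of all 9159 genes tested in UT cells (150 called, of which 61, or 0.666%, lower in BR7-BR10) and 2.06% of 9639 tested in Bch-treated cells were past the threshold by edgeR. The members are given here as a description without p-values, since these same samples made the Bch ratios in view when they were chosen. Of the 9 members tested in UT cells, 7 had a log2 fold change below 0, with a median of -0.36, against a median of -0.02 over all genes. Bax had -0.25 (SE 0.12), Phlda3 -0.36 (SE 0.23) and Trp53inp1 -0.93 (SE 0.60). Btg2 and Ccng1 lay on the other side of 0, at 0.30 (SE 0.23) and 0.20 (SE 0.23). Leaving out 1 mouse took these from 0.18 (BR3) to 0.50 (BR10) for Btg2, from 0.06 (BR8) to 0.32 (BR9) for Ccng1 and from -0.60 (BR1) to -0.23 (BR3) for Phlda3, and thinned counts gave 0.67 for Btg2. Of the 7 members tested in Bch-treated cells, 3 were above and 4 below 0, with a median of -0.07, against -0.01 over all genes. The sets' groups overlapped for 10 of 10 members in either treatment, where 8.04% of the genes tested in UT cells and 7.55% in Bch-treated cells did not overlap.

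Cell type markers differed between the sets in the same samples, and their part in the member values was not tested. In UT cells 8 of 8 colonocyte markers tested were above 0 for BR7-BR10 over BR1-BR4 (summed level of the list 1146 to 2094 against 976 to 1507 CPM), with Aqp8 (1.81, adjusted p = 0.0321 by edgeR) and Guca2b (0.77, 0.0368) past the threshold. Stem cell markers were below 0 for 8 of 9, with Ascl2 (-0.51, adjusted p = 0.0319) and Axin2 (-0.84, 0.0472) past the threshold by edgeR (summed level 760.0 to 827 against 958 to 1107 CPM). The goblet cell list summed to 2165 to 4898 against 2161 to 2722 CPM and the enteroendocrine list to 355 to 944 against 192 to 415 CPM, with 0 of 8 and 0 of 6 tested genes past the threshold in UT cells by edgeR. Of these, 6 of 8 goblet cell and 5 of 6 enteroendocrine markers were above 0, with 3 higher and 1 lower, and 2 higher and 0 lower, at an unadjusted p under 0.05. Agr2 held most of the goblet cell sum, at a mean of 2293 against 1469 CPM, whereas Fcgbp stood at 31.5 against 50.5 and Atoh1 at 38.7 against 47.7 CPM. With Bch, 5 colonocyte markers, 3 goblet cell markers (Muc2, Clca1 and Agr2), Fos (0.69) and Klf4 (1.06) were higher in BR7-BR10, past the threshold by edgeR. Fos and Klf4 were in the immediate early and dissociation list, of which 10 of 15 tested were above 0 (median 0.15). Myc of the same list (-0.50) and the stem cell markers Ascl2 and Sox9 were lower, also past the threshold.

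Other p53 targets were counted from a list of 46 genes, all in the table, which had also been written with earlier results known. Of 29 tested, 13 were above and 16 below 0 with Bch in BR7-BR10 (median log2 fold change -0.02, 0 called), and 19 above and 10 below in BR1-BR4 (median 0.05, 0 called), beside medians of -0.00 and 0.00 over all genes. By edgeR, 3 and 1 of them had an unadjusted p under 0.05, all higher with Bch. Those with the same sign in 4 of 4 mice and the smallest p in BR7-BR10 were Trp53i13 (0.80, SE 0.38), Ddit4, an inhibitor of mTORC1 (0.32, SE 0.15), and, lower, Aen, an apoptosis-linked nuclease (-0.52, SE 0.37). In BR1-BR4 they were Sat1 (0.20, SE 0.10), Gadd45a (0.21, SE 0.16) and, lower, Epha2 (-0.22, SE 0.37). The adjusted p of these 6 genes lay between 0.605 and 0.999 by edgeR.

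Between the sets, 20 of 29 other targets were below 0 in UT cells (median -0.26) and 18 of 30 in Bch-treated cells (median -0.19). Sfn, a 14-3-3 protein that holds the G2 checkpoint, was higher in UT cells of BR7-BR10, at 119.5 ± 7.60 against 77.3 ± 19.1 CPM (SD, n = 4, log2 fold change 0.60, SE 0.16, adjusted p = 0.0465 by edgeR). Gdf15, a secreted stress factor, was lower in Bch-treated cells of BR7-BR10, at 42.3 ± 8.98 against 67.7 ± 7.41 CPM (log2 fold change -0.72, SE 0.17, adjusted p = 0.0167 by edgeR). At an unadjusted p under 0.05 stood 2 targets higher and 4 lower in UT cells, and 2 higher and 8 lower in Bch-treated cells, beside 610 higher and 554 lower, and 719 higher and 568 lower, of all genes tested. The remaining tested targets did not pass the threshold in either treatment.

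**Figure D4:**
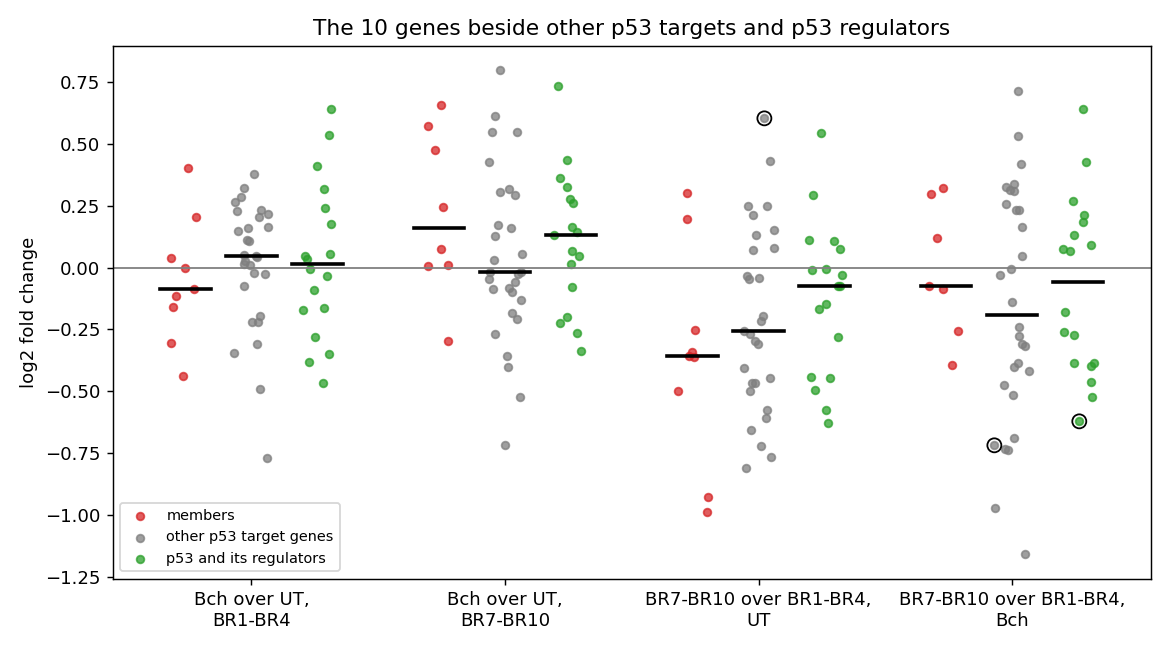
Log2 fold changes (vertical axis) of the members (red), other p53 targets (grey) and p53 with its regulators (green), each dot a tested gene, black lines the list medians and open circles the genes of the grey and green lists past an adjusted p of 0.05. Circles mark Sfn between UT cells, and Gdf15 and Trp53 between Bch-treated cells, while none appears for Bch within a set.

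p53 and its regulators were held in a list of 23 genes, 21 of them in the table. With Bch, 12 of 17 tested were above 0 in BR7-BR10 (median 0.13) and 9 of 18 in BR1-BR4 (median 0.01), and 0 were called in either set, with 0 and 1 at an unadjusted p under 0.05 by edgeR. Trp53 itself averaged 155 ± 32.3 CPM in UT and 130.3 ± 41.5 CPM in Bch-treated cells of BR7-BR10 (SD, n = 4), and 172 ± 19.2 and 204 ± 10.7 CPM in BR1-BR4. In BR1-BR4 it was higher with Bch in 4 of 4 mice (log2 fold change 0.24, SE 0.10, adjusted p = 0.565 by edgeR), and in BR7-BR10 in 2 of 4 (-0.26, SE 0.15, adjusted p = 0.999). Trp53 was lower in Bch-treated cells of BR7-BR10 than of BR1-BR4 (log2 fold change -0.62, SE 0.16, adjusted p = 0.0354 by edgeR). The deacetylase Sirt1 (0.44 in BR7-BR10), the acetyltransferase Ep300 (0.41 in BR1-BR4) and Daxx (-0.38 in BR1-BR4) had the smallest p among regulators with the same sign in 4 of 4 mice, and they were not past the threshold.

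The families of Plk2 and Cdkn1a were also measured. Of the 5 polo-like kinases, Plk1, Plk2 and Plk4 passed the filter within each set. Plk1, a mitotic kinase, had log2 fold changes with Bch of -0.18 (SE 0.18) in BR7-BR10 and 0.00 (SE 0.14) in BR1-BR4. Plk4, the kinase of centriole duplication, had 0.19 (SE 0.26) with 3 of 4 mice higher in BR7-BR10, and -0.37 (SE 0.28) with 4 of 4 mice lower in BR1-BR4. Plk3 was counted at 4 to 17 UMIs and Plk5 at 0 to 7 UMIs per sum. Of the 7 tested cyclin-dependent kinase inhibitors, Cdkn1a included, 0 were called, and those named by the same rule were Cdkn3 (-0.23, SE 0.15, in BR7-BR10) and Cdkn2c (0.51, SE 0.28, in BR1-BR4). Among 15 tested paralogs of the members 0 were called with Bch, and Btg1 (0.39, SE 0.13), Phlda2 (0.46, SE 0.26) and Mcl1 (-0.32, SE 0.16) had the same sign in 4 of 4 mice of BR1-BR4. Cycling cell genes lay above 0 for 7 and below 0 for 13 of 20 tested in each set, and 0 were called.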

How the data were processed

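The authors primed cDNA with oligo-dT carrying sample barcodes and UMIs, aligned reads to GRCm38 with GENCODE M25 annotation in the Drop-seq pipeline, and deposited raw UMI counts for every gene in each library. The submitters' processing notes list GRCh38, whereas the methods name GRCm38 for mouse reads, which was followed here. Use of strand and treatment of reads matching several genes are not given in the sources used here. For 1520 genes, technical replicate 2 is blank and was read as 0.

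Technical replicates were summed per mouse and treatment. In R 4.3.3, edgeR 4.0.16 (with limma 3.58.1) was run with filterByExpr, TMM and the robust quasi-likelihood test, adjusted by Benjamini-Hochberg over all genes tested, threshold 0.05. The mouse was a block for Bch, per set, over all 8 pairs and for the difference between sets. Between sets no block was possible. Standard errors are the log2 fold change over the square root of F. Pairs are cells of 1 mouse per the labels. The correlations of their deviations from group means were 0.256, 0.0450, 0.0554 and 0.0993 for BR1 to BR4, and 0.0735, 0.165, -0.00190 and -0.0218 for BR7 to BR10. Mouse ratios use a prior count of 2. The members and all gene lists were chosen with earlier results of these data known. Named list genes are those past the threshold (up to 5 per list and direction), or else the 2 per direction with the smallest p among genes with the same sign in all 4 mice, and of these the text gives the p53, kinase, inhibitor and paralog lists, markers past the threshold and, chosen after their values were seen, the 4 markers with the smallest p for Bch. The steps were tested on simulated data. Alternatives were DESeq2 1.42.0, its size factors, no filter, each technical replicate, their mean, counts thinned to 557512 UMIs, no block, and leaving out each mouse.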

Additional observations from a re-analysis of the deposited data

Results flagged for a closer look

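Levels and ratios of the members that stood apart within a group of 4 by Dixon's criterion, which chance meets in about 1 in 20 groups, were the following. The screen covered the levels of every group with at least 5 UMIs in each sum. It also covered the ratios, in both sets, of the 7 members with at least 5 UMIs in every sum. With so many groups, some of the flags are to be counted on by chance alone. The Plk2 level in UT cells of BR1 was 26.0 CPM, below the 48.2 to 52.3 CPM of BR2, BR3 and BR4. The Mdm2 level in UT cells of BR8 was 13.4 CPM, above 5.14 to 6.40 CPM in the rest of BR7-BR10. The Phlda3 level in Bch-treated cells of BR7 was 52.3 CPM, above 23.7 to 25.7 CPM in BR8, BR9 and BR10. The Ccng1 log2 ratio of BR4 was 0.93, above 0.16 to 0.18 in BR1, BR2 and BR3.

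Plk2 was also noted because every mouse of BR7-BR10 was higher and every mouse of BR1-BR4 lower with Bch, a difference of 0.96 on the log2 scale. In the fit over all genes 0 of 10280 genes passed the threshold for this difference by edgeR, with 451 at an unadjusted p under 0.05, and nothing is read from the place of Plk2 among them, since it was chosen from these ratios.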

How the results depend on the processing

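The members carry no test, and the larger moves of their values under the alternatives are given above. The mean of technical replicates was chosen after seeing the data. With no replicate block, in place of the pairing by mouse, the calls were 0 in BR7-BR10, 0 in BR1-BR4 (2 with it), 0 over all pairs and 0 for the difference. DESeq2 called 14 genes in BR1-BR4. Technical replicate 1 alone gave 9 in BR1-BR4 and 1 over all pairs. Without the filter, calls were 88 in BR1-BR4, 15 over all pairs, 1 for the difference, 234 between UT and 324 between Bch-treated cells. Thinned counts gave 98 and 103 between the sets. Leaving out each mouse gave 0 to 4 calls in BR7-BR10, 0 to 19 in BR1-BR4, 0 to 1 over all pairs, 74 to 210 between UT cells (74 without BR2) and 92 to 469 between Bch-treated cells (469 without BR1). The causes were not tested. Depth limits Mdm2, Zmat3, Sesn1 and Trp53inp1 most.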
